A study of Mus musculus with 22 samples.

Results

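The CPGSE +/+ cells are mouse bone marrow cells carrying both CD45 and Sca1, and they were set against the OGCsort +/- cells, which carry CD45 and not Sca1. The comparison took all RNA samples of the CPGSE +/+ group, 2 samples numbered 4 and 6, and all RNA samples of the OGCsort +/- group, 3 samples numbered 1, 7 and 9. These are 5 of the 11 RNA samples and 10 of the 22 arrays of the series, and the samples were taken by their labels alone, although the comparison itself was picked with earlier results of these data known. The series sorted marrow cells by these 2 surface markers and hybridized the RNA of each sample to a pair of Affymetrix chips, MOE430A and MOE430B. The CPGSE +/+ cells were given with haematopoietic stem cells of the marrow as their source, were stained with CD45-APC and Sca1-PE, were sorted on a Moflo instrument and had a stated purity of 95 to 98%. The OGCsort +/- cells were given as primary marrow cells with a stated purity of 90%. The labels name no strain, genotype, treatment or age for either group, and leave unsaid whether each sample was taken from a different animal, so a p-value here covers nothing beyond the spread among the samples. The run records give the order of the signs, CD45 then Sca1, for the OGCsort set alone. Both groups were compared with the 3 OGCsort +/+ samples where it bears on a result, since the OGCsort +/+ cells carry the same pair of markers but come from the set of sorts that holds the +/- cells.

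CD45 is a tyrosine phosphatase on the surface of nearly all white blood cells. Sca1 is a lipid-anchored surface protein that marks blood stem cells in the mouse and is also carried by many lymphocytes, by plasmacytoid dendritic cells and by vascular cells. Among CD45+ marrow cells, those without Sca1 include most neutrophils and their precursors and the developing B cells.

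The arrays measured signal intensity per probe set, a group of short probes for 1 transcript, and precision is limited by how few arrays there are. A signal over 100, on arrays scaled to a trimmed mean of 500, was found for 65.6 and 63.9% of the MOE430A probe sets in the CPGSE +/+ samples, and for 71.0, 67.0 and 67.3% in OGCsort +/- samples 1, 7 and 9. The 3' to 5' signal ratio of the Gapdh control probe sets, which rises with RNA degradation, was 14.4 and 15.0 in CPGSE +/+ and 19.6, 13.8 and 14.2 in OGCsort +/- on MOE430A. The same ratio for actin was 4.56 and 4.77 in CPGSE +/+ and 7.18, 6.22 and 7.20 in OGCsort +/-, so here the groups did not overlap. Whether RNA quality had a part in the differences between the groups was not tested. The CPGSE arrays were run on an earlier day and from another chip lot than all OGCsort arrays, on both chips. Run, chip lot, set of sorts, stated purity and Sca1 cannot be told apart in this comparison. On MOE430B the fluidics station also split the groups, with both CPGSE arrays on station 1 and all 3 OGCsort +/- arrays on station 2, while on MOE430A all 5 were on station 1. OGCsort +/- sample 1 stood apart from samples 7 and 9 in its neutrophil transcripts, and its MOE430B array was run on another day than theirs.

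Ptprc, which encodes CD45, was present in all 5 samples. Its signal was 14640 and 12040 in CPGSE +/+ samples 4 and 6, and 7366, 8700 and 8087 in OGCsort +/- samples 1, 7 and 9. Both CPGSE samples lay above all 3 OGCsort +/- samples, but the log2 difference of 0.72 (SE 0.52) did not pass (limma adjusted p = 0.607). A 2-sided exact permutation test gave p = 0.2, the smallest that 2 samples against 3 allow. The other Ptprc probe set, on MOE430B, had 3385 and 4293 in CPGSE +/+ and 2312, 1863 and 2813 in OGCsort +/-, with the same log2 difference of 0.72 (adjusted p = 0.741). No probe set carried Ly6a, the gene of Sca1, as its single gene name, so the marker that separates the groups was not checked by name.

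Few probe sets passed between the CPGSE +/+ and OGCsort +/- samples, and most of those were higher in CPGSE +/+. On MOE430A, 142 of 19273 probe sets passed limma's test at an adjusted p under 0.05, which is 0.737% of those tested, with 101 (0.524%) higher and 41 (0.213%) lower in CPGSE +/+. On MOE430B, 28 of 21355 passed (0.131%), with 22 (0.103%) higher and 6 (0.0281%) lower. The called log2 differences had sizes of 1.04 to 6.30 on MOE430A and 1.65 to 3.85 on MOE430B, while the median over all probe sets was -0.11 and -0.07. All log2 differences were taken on log2(signal + 32), which understates the fold of dim probe sets. Taking 1 probe set per named gene, 92 of 17027 genes passed (0.54%), 64 higher (0.376%) and 28 lower (0.164%). In bulk RNA fewer cells of a type and less RNA per cell cannot be told apart.

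**Figure D1:**
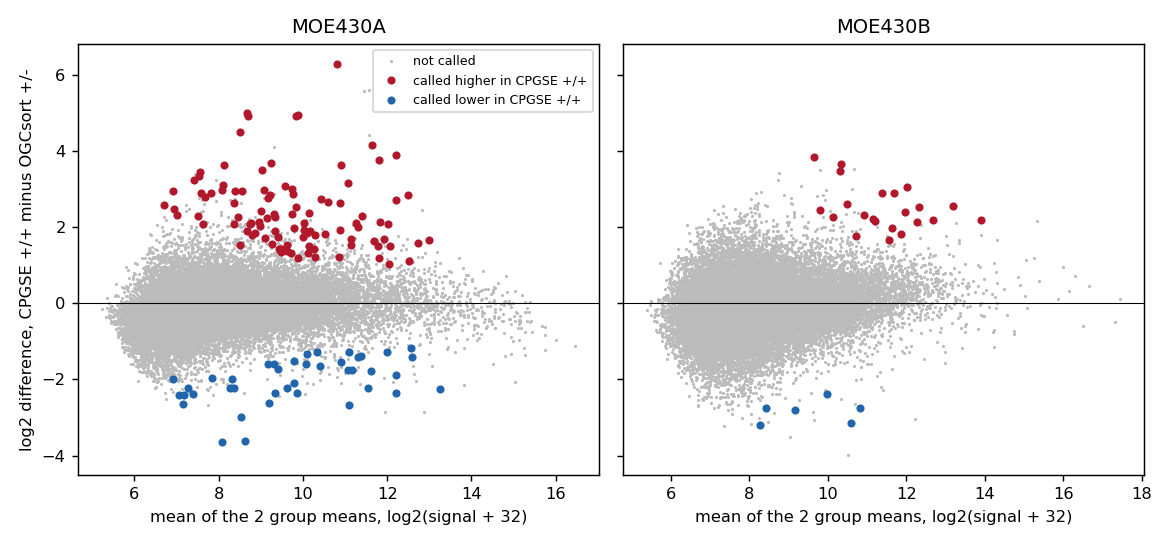
Log2 difference between CPGSE +/+ and OGCsort +/- samples (vertical axis) against the mean of the group means on the log2(signal + 32) scale (horizontal axis), 1 point per probe set, for each chip. Of the MOE430A probe sets 101 were called higher and 41 lower in CPGSE +/+, and of the MOE430B probe sets 22 and 6.

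These counts rest on every sample. On MOE430A 4 probe sets passed without CPGSE +/+ sample 4 and 26 without CPGSE +/+ sample 6, and 79, 64 and 54 passed without OGCsort +/- samples 1, 7 and 9 in turn. On MOE430B the counts were 0 and 5 without the CPGSE samples in turn, and 0, 23 and 0 without the OGCsort +/- samples. The 3 counts of 0 stood beside 1528, 1649 and 1681 probe sets at an unadjusted p under 0.05. With 1 CPGSE sample left in the fit, that sample was taken to vary as the other groups do. Of 37 called genes named here by their representative probe set, only Cd4 kept its call without CPGSE +/+ sample 4. Without CPGSE +/+ sample 6 it was 8, namely Jchain, Klk1, Ccr9, Cd4, Lifr, Atf3, Bcl7a and Fn1, and 19, 21 and 15 kept it without OGCsort +/- samples 1, 7 and 9. Cd4 kept its call in every case, with an adjusted p of at most 0.0146 and log2 differences of 4.13 to 4.85. None of the 37 changed direction when a sample was left out. Of the 37, 20 were read by more than 1 probe set, only 1 probe set passed in 15 of these 20, and in 7 (Lifr, Sh3bgr, Ms4a7, Rasgrp1, Myl4, Reln and Ptprf) another probe set had a difference of the opposite sign. Values and bounds given for a gene are those of its representative probe set unless another is named. With the station as a block, whose effect on MOE430B rests on OGCsort +/+ as the 1 group run on both stations, 3 MOE430B probe sets passed. Of the 3, 2 were among the 28, those of Siglech and P2ry13, and the remaining one, of Lair1, was not.

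The same fit gave the other comparisons that share these samples. Between CPGSE +/+ and OGCsort +/+ no probe set passed on either chip (0%), with smallest adjusted p-values of 0.190 on MOE430A and 0.387 on MOE430B by limma. At an unadjusted p under 0.05 there were 1200 on MOE430A (6.23%) and 1240 on MOE430B (5.81%), and 2399 (12.4%) and 1903 (8.91%) between CPGSE +/+ and OGCsort +/-. Between OGCsort +/+ and OGCsort +/- 104 probe sets passed on MOE430A (0.54%) and 2 on MOE430B (0.00937%). In that comparison sample 1 of each group has the same sort number, and the fit did not use this pairing. The contrasts hold the CPGSE +/+ or the OGCsort +/- samples in common, so their values are given side by side for the genes named here and are not independent of each other.

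Genes of plasmacytoid dendritic cells, which make type I interferon on meeting virus, were the list with the most genes called. The lists were chosen with earlier results of these data known, so this ranking is no independent support. Of 22 listed genes 20 were measured, 6 were higher in CPGSE +/+ and none was lower, where 0.376% of all named genes were higher. The median log2 difference of the 20 was 1.78, against -0.08 over all named genes, and 16 of them lay higher in both CPGSE samples than in every OGCsort +/- sample, as did 14.3% of all named genes. Ccr9, a homing receptor for the gut and thymus, had a signal of 7355 and 3371 in CPGSE +/+, against 38.5, 212.6 and 231.7 in OGCsort +/-. The lower CPGSE sample was far above the highest OGCsort +/- sample (log2 difference 4.92, SE 0.58, adjusted p = 0.00212). The fold of Ccr9 was 30.3, and 19.7 without OGCsort +/- sample 1. Its 5 probe sets were not alike, since 2 passed.

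Klk1, a tissue kallikrein protease, had 3665 and 1398 in CPGSE +/+ and 54.2, 9.79 and 73.4 in OGCsort +/-. All 3 OGCsort +/- arrays were under 100, so Klk1 was at least 17.4-fold higher on this probe set (log2 difference 4.99, SE 0.63, adjusted p = 0.00291). Of its 4 probe sets 3 passed, and the one on MOE430B had a log2 difference of 0.42. The kallikrein genes are close copies of each other, so signal may be shared between Klk1 and Klk1b27, which was at least 2.18-fold higher (adjusted p = 0.0475). Siglech, a sialic acid-binding receptor that marks plasmacytoid dendritic cells in the mouse, had 8357 and 6346 in CPGSE +/+, against 787.9, 1401 and 791.3 in OGCsort +/-. Its groups did not overlap, and it was 7.40-fold higher (log2 difference 2.89, SE 0.39, adjusted p = 0.0128).

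Clec10a, a lectin receptor, had 2518 and 1800 in CPGSE +/+ and 134.8, 326.8 and 47.9 in OGCsort +/- (12.8-fold, adjusted p = 0.0119). Ptprf, a receptor phosphatase, had 1174 and 1160 in CPGSE +/+ and 152, 301.2 and 147.2 in OGCsort +/- (5.40-fold, adjusted p = 0.0156). Ptprf and Klk1b27 were named after their values were seen, as the remaining called members of the list. Irf8 and Irf7, transcription factors that these cells use, had log2 differences of 1.78 and 1.26 and did not pass (adjusted p = 0.0656 and 0.0632). Between OGCsort +/+ and OGCsort +/- 8 of the 20 genes passed, all higher (0.264% of all named genes), with a median of 1.68, and between CPGSE +/+ and OGCsort +/+ no gene passed by limma, with 0 at an unadjusted p under 0.05 (2.75% of all named genes were higher and 3.17% lower at that p) and a median of 0.09. Ccr9 was at 1678, 4972 and 4540 in OGCsort +/+ samples 1, 5 and 6, and Klk1 at 671.3, 2047 and 2643. Without CPGSE +/+ sample 4 none of the 6 genes kept its call, and without CPGSE +/+ sample 6 Ccr9 and Klk1 kept theirs. The log2 difference of Klk1 was 4.30 without CPGSE +/+ sample 4 and 5.67 without sample 6.

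**Figure D2:**
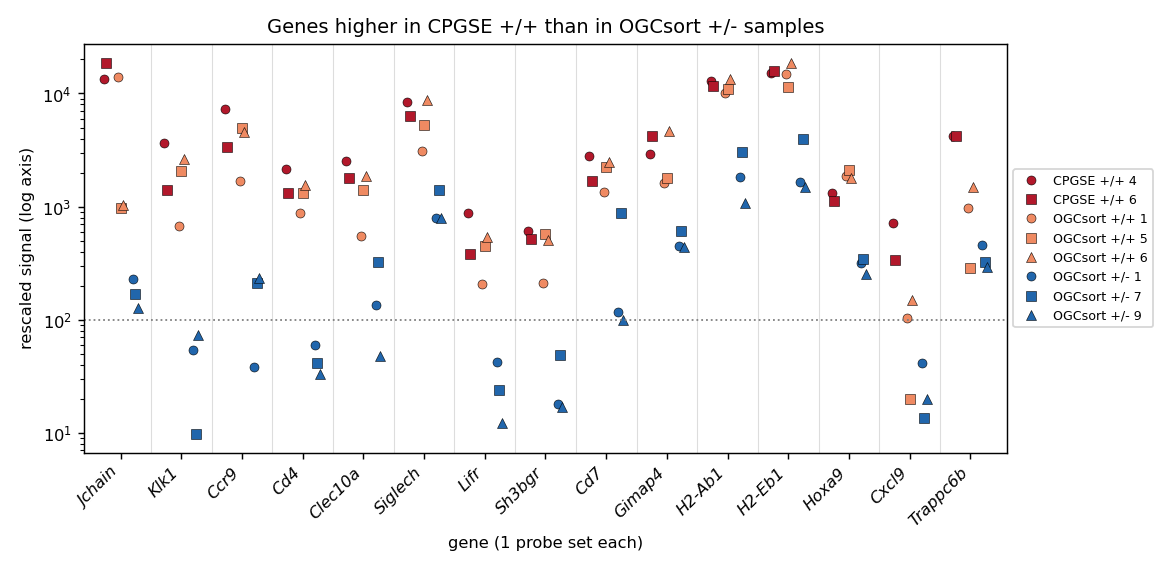
Rescaled signal (log axis) of 15 genes called higher in CPGSE +/+ than in OGCsort +/-, 1 point per sample, with OGCsort +/+ between them and a dotted line at a signal of 100. Both CPGSE samples lie above all 3 OGCsort +/- samples for each gene, and Cd4, for example, is at 2163 and 1308 in CPGSE +/+ and at 60.1, 41.9 and 33.3 in OGCsort +/-.

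In the list of MHC class II presentation, by which B cells, dendritic cells and macrophages show peptides to helper T cells, every measured gene lay apart between the groups. All 10 measured genes of 11 listed were higher in both CPGSE samples than in every OGCsort +/- sample, 2 of them passed the test, and the median log2 difference was 1.00, where 14.3% of all named genes lay apart in this way and 0.376% were called higher. H2-Eb1, the beta chain of the I-E molecule, had 15150 and 15900 in CPGSE +/+ and 1662, 3967 and 1485 in OGCsort +/-, a 7.15-fold difference (log2 2.84, SE 0.43, adjusted p = 0.00784). H2-Ab1, the beta chain of the I-A molecule, had 12760 and 11590 in CPGSE +/+ and 1831, 3056 and 1086 in OGCsort +/- (log2 2.71, SE 0.55, adjusted p = 0.0382), and all 3 of its probe sets passed. H2-Aa, the alpha chain of I-A, was read by 4 probe sets that differed in size. The one taken to stand for the gene had 24810 and 28860 in CPGSE +/+ and 13580, 18660 and 12670 in OGCsort +/- (log2 0.86, adjusted p = 0.653). Another H2-Aa probe set on the same chip had 6628 and 6828 in CPGSE +/+ and 269.6, 1061 and 461.9 in OGCsort +/- (log2 3.63, adjusted p = 0.00291). The 2 on MOE430B had log2 differences of 2.91 and 2.17 (limma adjusted p = 0.047 and 0.110), so 2 of the 4 passed. The promoters of H2-Aa and H2-Eb1 are shown because class II genes share a promoter architecture whose Y box holds CCAAT and whose X2 box resembles TGACGTCA.
H2-Aa promoter: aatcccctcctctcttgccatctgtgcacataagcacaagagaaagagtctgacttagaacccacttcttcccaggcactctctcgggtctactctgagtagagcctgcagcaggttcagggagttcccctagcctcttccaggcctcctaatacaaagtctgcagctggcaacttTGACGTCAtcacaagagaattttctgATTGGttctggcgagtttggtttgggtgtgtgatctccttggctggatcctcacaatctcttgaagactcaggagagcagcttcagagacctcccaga
H2-Eb1 promoter: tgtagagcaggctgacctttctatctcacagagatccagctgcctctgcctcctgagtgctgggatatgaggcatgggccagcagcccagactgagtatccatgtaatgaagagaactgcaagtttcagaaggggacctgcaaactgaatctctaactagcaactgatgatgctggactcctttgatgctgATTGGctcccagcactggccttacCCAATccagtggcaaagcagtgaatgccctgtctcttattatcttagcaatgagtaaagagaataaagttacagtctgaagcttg
Capitals mark matches to these motifs on either strand, which do not overlap each other here. The sequences are RefSeq's of GRCm38.p6, at chr17:34287774-34288073 on the minus strand and chr17:34305617-34305916 on the plus strand, each from 250 bases before the start to 50 after it. In H2-Aa TGACGTCA begins 74 bases before the start and CCAAT, on the other strand, 48 bases before it. H2-Eb1 holds CCAAT on each strand, 35 and 59 bases before the start, and no TGACGTCA. Among 32851 promoters of this length CCAAT was found in 37.4% and TGACGTCA in 1.79%, and a match describes letters only.

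Cd74, the invariant chain that guards the class II groove, had 11310 and 9262 in CPGSE +/+ and 2313, 4721 and 2796 in OGCsort +/- (log2 1.70, adjusted p = 0.0602). H2-DMa, which helps load the peptide, had a log2 difference of 1.09 (adjusted p = 0.0998), so neither passed. In the OGCsort set the +/+ and +/- samples differed for the list by a median log2 of 1.38, with 2 genes called, and CPGSE +/+ against OGCsort +/+ had a median of -0.03 with 0 of 10 genes called by limma and 0 at an unadjusted p under 0.05. Without CPGSE +/+ sample 4, and without CPGSE +/+ sample 6, neither H2-Eb1 nor H2-Ab1 passed. Of 12 measured genes of MHC class I and the immunoproteasome none passed, 1 was higher at an unadjusted p under 0.05 (as were 5.53% of all named genes), and the median was 0.48.

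In each of the plasma cell, T lymphoid and natural killer lists 1 gene passed, and it was higher in CPGSE +/+, as were 0.376% of all named genes. Jchain, the chain that joins IgA and IgM into polymers in plasma cells, had the largest difference of all genes called. Its signal was 13500 and 18760 in CPGSE +/+, against 227.9, 170.2 and 126.1 in OGCsort +/-, a 78.8-fold difference (log2 6.30, SE 0.82, adjusted p = 0.00322). Jchain was also uneven among the OGCsort +/+ samples, at 14090, 978 and 1028 in samples 1, 5 and 6. Igha, the heavy chain of IgA, had 8749 and 22170 in CPGSE +/+ and 862.6, 802.5 and 336.8 in OGCsort +/-, and did not pass (log2 4.42, adjusted p = 0.0971). The fold of Igha, 21.5, was 34.1 without CPGSE +/+ sample 4 and 13.5 without sample 6. Jchain was the 1 gene called of 17 measured plasma cell genes, whose median was 0.50. Of the 17, 9 lay higher and 1 lower in both CPGSE samples than in every OGCsort +/- sample, as did 14.3 and 18.1% of all named genes.

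Cd4, the co-receptor of helper T cells that in the mouse is also found on plasmacytoid dendritic cells, had 2163 and 1308 in CPGSE +/+ and 60.1, 41.9 and 33.3 in OGCsort +/-. It was at least 12.99-fold higher, since all OGCsort +/- arrays were under 100 (log2 4.49, SE 0.39, adjusted p = 6.8e-05). Cd4 was the 1 gene called of 22 measured T lymphoid genes, whose median was 0.91. Of the 22, 15 lay higher in both CPGSE samples than in every OGCsort +/- sample, as did 14.3% of all named genes. At an unadjusted p under 0.05 by limma 11 were higher and 0 lower (5.53 and 5.8% of all named genes). The T cell receptor chain Cd3e was at 732.9 and 381.3 in CPGSE +/+ and at 727.7, 411.8 and 33.5 in OGCsort +/-, so it overlapped between the groups (log2 1.00, adjusted p = 0.613). The log2 difference of Cd3e was 1.72 without OGCsort +/- sample 1 and -0.046 without sample 9. The summed signal of 4 defining T cell markers was 3320 and 2292 in CPGSE +/+, against 1495, 1996 and 945.7 in OGCsort +/-. Cd8a, the co-receptor of cytotoxic T cells, and Cd27, a receptor of lymphocyte survival, had log2 differences of 1.505 and 1.605 and did not pass (adjusted p = 0.132 and 0.134). Their part, and that of other Cd4-bearing cells, in the Cd4 signal was not tested.

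Cd7, a surface protein of T and natural killer cells, had 2805 and 1687 in CPGSE +/+ and 116.1, 882.5 and 99.6 in OGCsort +/- (8.45-fold, log2 3.08, SE 0.63, adjusted p = 0.0382). OGCsort +/- sample 7 was the highest of its group, and without it the fold was 15.8. Cd7 was the 1 gene called of 20 in the natural killer and cytotoxic list, whose median was 0.44. Of the 20, 7 lay higher and 4 lower in both CPGSE samples than in every OGCsort +/- sample, as did 14.3 and 18.1% of all named genes. Klrd1, which encodes CD94 of natural killer cell receptors, was at 1995 and 1856 in CPGSE +/+ and 1060, 1790 and 869.6 in OGCsort +/- (adjusted p = 0.426). The Gimap genes encode GTPases that maintain lymphocyte survival and lie together on chromosome 6. Gimap4 had 2927 and 4240 in CPGSE +/+ and 453.2, 612.9 and 436.4 in OGCsort +/- (6.74-fold, adjusted p = 0.00704). Gimap8 had 14740 and 10180 in CPGSE +/+ and 1076, 4189 and 2034 in OGCsort +/- (5.77-fold, adjusted p = 0.0373). These were the 2 called of 8 measured Gimap genes, which had a median of 1.42, and 7 of the 8 lay higher in both CPGSE samples, where 0.376% of all named genes were called higher and 14.3% lay so. Gimap7 and Gimap5 had log2 differences of 1.55 and 1.64 and did not pass (adjusted p = 0.0649 and 0.478).

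No gene of the B cell lists passed. Of 23 measured mature B cell genes none passed by limma, 9 were higher and 1 lower at an unadjusted p under 0.05 (5.53 and 5.8% of all named genes), and the median was 0.69. Ms4a1, which encodes CD20, was at 7755 and 5680 in CPGSE +/+ and 3041, 8955 and 7998 in OGCsort +/-, so the groups overlapped (log2 0.14, adjusted p = 0.921). This small difference turned to -0.084 without CPGSE +/+ sample 4 and to -0.35 without OGCsort +/- sample 1. Ly9, a SLAM-family receptor, and Fcer2a, the low-affinity IgE receptor of mature B cells, were 4.001-fold and 2.17-fold higher on average without passing (adjusted p = 0.0833 and 0.119). Of 16 pre-B genes none passed, 5 were lower at an unadjusted p under 0.05, 8 (where 18.1% of all named genes did so) lay lower in both CPGSE samples, and the median was -0.89. Rag1, which cuts the antigen receptor genes, had 411.5 and 606.7 in CPGSE +/+ and 1422, 2418 and 3201 in OGCsort +/- (log2 -2.08, adjusted p = 0.295). Vpreb3, a chaperone of the pre-B receptor, had a log2 difference of -1.92 (adjusted p = 0.266).

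The labels give the CPGSE +/+ samples as haematopoietic stem cells. By their representative probe sets, none of 6 defining stem and progenitor markers was under 100 on every array of CPGSE +/+ or OGCsort +/-. Their summed signal was 3424 and 3870 in CPGSE +/+, against 2149, 1685 and 1508 in OGCsort +/-. Flt3 was the largest part of this sum in CPGSE +/+, at 1236 and 1305. It had 345.2, 416.8 and 651 in OGCsort +/- and did not pass (log2 1.42, limma adjusted p = 0.351). The part of cells other than stem and progenitor cells in this sum was not tested. Of the 6, 4 lay higher and 1 lower in both CPGSE samples than in every OGCsort +/- sample, as did 14.3 and 18.1% of all named genes. Hlf is 1 of these 6, and its probe set 1434736_at, not its representative one, was called higher. That probe set, named after its values were seen, had 356.2 and 397.3 in CPGSE +/+ and 75.8, 33.5 and 93.6 in OGCsort +/-. It was at least 3.09-fold higher in CPGSE +/+ (limma adjusted p = 0.048). Hoxa9, a homeobox factor of stem and progenitor cells, had 1320 and 1126 in CPGSE +/+ and 316.8, 342.9 and 254 in OGCsort +/- (3.74-fold, log2 1.90, SE 0.41, adjusted p = 0.0470). Its other probe set did not pass (log2 0.65, adjusted p = 0.536). Hoxa9 was the 1 gene called of 31, where 0.376% of all named genes were called higher, and the list median was 0.12. Of the 31, 10 lay higher and 6 lower in both CPGSE samples. At an unadjusted p under 0.05 by limma 8 were higher and 5 lower (5.53 and 5.8% of all named genes). Cd34, a sialomucin of progenitors, had a log2 difference of 1.48 (adjusted p = 0.0970). Kit, the receptor for stem cell factor, had 580.1 and 635.5 in CPGSE +/+ and 616.9, 364.3 and 177.7 in OGCsort +/-, so its groups overlapped (adjusted p = 0.554). Hoxa9 lost its call when any of the 5 samples was left out. Apart from Pax5 of B cells and Tnfrsf17 of plasma cells, no measured defining marker of T, natural killer, B, plasma, plasmacytoid dendritic or monocyte cells was under 100 on both CPGSE arrays.

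Of 29 measured monocyte and macrophage genes 1 was higher and 1 lower, where 0.376 and 0.164% of all named genes were called so, and the median was 0.58. Of the 29, 11 lay higher and 5 lower in both CPGSE samples than in every OGCsort +/- sample, as did 14.3 and 18.1% of all named genes. C1qa, a chain of the first complement component made by macrophages, had 304.9 and 1105 in CPGSE +/+ and 67.2, 36 and 52.6 in OGCsort +/-, and was at least 4.69-fold higher (adjusted p = 0.0303). CPGSE +/+ sample 6 was the higher, and the log2 difference was 3.78 without sample 4 and 2.02 without sample 6, with neither passing. Its partner C1qc had 475.1 and 1665 in CPGSE +/+ and 67.4, 209.1 and 103.6 in OGCsort +/- (log2 2.65, adjusted p = 0.0547), and its fold of 6.26 was 11.5 without CPGSE +/+ sample 4 and 3.42 without sample 6. C1qb, named after its values were seen, had called probe sets 1437726_x_at and 1434366_x_at (12.4-fold and 7.13-fold higher, adjusted p = 0.0277 and 0.0156). Of 35 interferon response genes 1 was higher and 20 lay higher in both CPGSE samples, against 0.376% and 14.3% of all named genes, with a median of 0.88. Ifi47, an interferon-induced GTPase, had 8457 and 5787 in CPGSE +/+ and 1655, 2555 and 2350 in OGCsort +/- (3.22-fold, log2 1.69, SE 0.29, adjusted p = 0.0157). Gbp2, another such GTPase, had a log2 difference of 2.09 (adjusted p = 0.0833), and its other probe set passed, with 1549 and 927.6 in CPGSE +/+ and 187.9, 328.9 and 186.8 in OGCsort +/- (log2 2.25, adjusted p = 0.0210). Car2, a carbonic anhydrase of red cells and osteoclasts, had 1663 and 2413 in CPGSE +/+ and 795.3, 686 and 685.7 in OGCsort +/- (2.70-fold, adjusted p = 0.0214). It was the 1 gene called of 22 erythroid genes, whose median was -0.09. Of the 22, 4 lay higher and 9 lower in both CPGSE samples, as did 14.3 and 18.1% of all named genes. Car1, another carbonic anhydrase, had a log2 difference of -2.01 and did not pass (adjusted p = 0.156). Hemgn, a nuclear protein of erythroid cells, was at 161.7 and 516.2 in CPGSE +/+ and 173.4, 184.8 and 66.6 in OGCsort +/- (log2 0.99, adjusted p = 0.388), and its log2 difference was 1.74 without CPGSE +/+ sample 4 and 0.24 without sample 6.

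Other genes with the largest differences belonged to none of the lists. Lifr, the receptor for leukaemia inhibitory factor, had 878.7 and 384.4 in CPGSE +/+ and 42.2, 23.9 and 12.2 in OGCsort +/-, at least 4.67-fold higher (adjusted p = 0.00784). Sh3bgr had 610.1 and 518 in CPGSE +/+ and 18, 48.7 and 17 in OGCsort +/-, at least 4.50-fold higher on this probe set (adjusted p = 0.00662). Of the other 2 Sh3bgr probe sets neither passed, and one of them went the other way without overlap, at 184.8 and 259.7 in CPGSE +/+ and 738.9, 354.7 and 362.4 in OGCsort +/- (log2 -0.96, adjusted p = 0.651). Ctsl, a lysosomal protease, was 8.96-fold higher (adjusted p = 0.0210) and Ms4a7, a tetraspan protein of macrophages, 7.89-fold higher (adjusted p = 0.0289). These genes were high in both sets of +/+ samples, at log2 differences between CPGSE +/+ and OGCsort +/+ of 0.61 for Lifr, 0.46 for Sh3bgr, 0.59 for Ctsl and 0.36 for Ms4a7. Cxcl9, an interferon-induced chemokine for activated T cells, and Trappc6b, a subunit of a vesicle tethering complex, stood further from the OGCsort +/+ samples. Cxcl9 had 723.8 and 334.9 in CPGSE +/+, 104.3, 20.1 and 150.1 in OGCsort +/+, and 41.9, 13.5 and 19.8 in OGCsort +/-, at least 3.99-fold higher in CPGSE +/+ than in OGCsort +/- on this probe set (adjusted p = 0.0214). The other Cxcl9 probe set overlapped, at 312.8 and 100.8 in CPGSE +/+ and 187.4, 188.4 and 166.6 in OGCsort +/- (adjusted p = 0.998). Trappc6b had 4198 and 4248 in CPGSE +/+, 966, 287 and 1506 in OGCsort +/+, and 459.6, 321.8 and 291.1 in OGCsort +/- (11.1-fold over OGCsort +/-, adjusted p = 0.0269), while its other probe set had a log2 difference of 0.74 (adjusted p = 0.56). The differences of Cxcl9 and Trappc6b between CPGSE +/+ and OGCsort +/+, 2.27 and 2.43 on the log2 scale, did not pass (adjusted p = 0.422 and 0.387).

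On MOE430B 25 of the 28 called probe sets had a single gene name, and those described next were picked after their values were seen. Lair1, an inhibitory collagen receptor of immune cells, had 4157 and 2199 in CPGSE +/+ and 89.2, 199.3 and 310.2 in OGCsort +/- (14.4-fold). Icos, a co-stimulator of T cells, had 6329 and 2953 in CPGSE +/+ and 1030, 844.8 and 665.9 in OGCsort +/- (5.03-fold). Gpr171 was 6.14-fold, Gpr18 4.404-fold and the nucleotide receptor P2ry13 4.49-fold higher, and all 3 encode G protein-coupled receptors. H2-DMb2, a chain of the peptide loader H2-DM, had 18150 and 10680 in CPGSE +/+ and 2429, 3621 and 3149 in OGCsort +/- (4.56-fold). The MOE430A probe sets that represent Lair1, Icos and H2-DMb2 in the lists and gene counts did not pass, with log2 differences of 1.28, 1.35 and 0.90. By the probe sets given here, only P2ry13 of these 6 genes kept its call with the station as a block. Another Lair1 probe set on MOE430B, not among the 28, passed in that fit (log2 difference 5.02, limma adjusted p = 0.0387). Of the 6 genes, 0 kept their call without OGCsort +/- sample 1 or 9, and 3 kept it without OGCsort +/- sample 7. Of the 15 called MOE430A probe sets without a single gene name, 1417185_at had the largest difference, at 22220 and 15020 in CPGSE +/+, against 1460, 1520 and 790 in OGCsort +/- (14.8-fold, log2 3.88, SE 0.31). On MOE430B the largest difference without a gene name among those lower was 1459202_at, with 238.7 and 976.8 in CPGSE +/+ and 3729, 3873 and 6582 in OGCsort +/- (log2 -3.14).

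The genes lower in CPGSE +/+ than in OGCsort +/- cells came with different levels in the OGCsort +/+ samples. In one kind the OGCsort +/+ samples stood near the OGCsort +/- samples. Plk2, a stress-inducible polo-like kinase, had 43.5 and 44.7 in CPGSE +/+, 890, 502.5 and 731.6 in OGCsort +/+, and 641.3, 885.8 and 1368 in OGCsort +/-. Both CPGSE arrays were under 100, and Plk2 was at least 7.22-fold lower in CPGSE +/+ than in OGCsort +/- on this probe set (log2 -3.65, SE 0.56, adjusted p = 0.00784). The other Plk2 probe set overlapped, at 408.8 and 356 in CPGSE +/+ and 764.8, 334.4 and 614 in OGCsort +/- (log2 -0.47, adjusted p = 0.858). Atf3, a transcription factor of the stress response, had 19.4 and 212.1 in CPGSE +/+, 1211, 846.8 and 620.1 in OGCsort +/+, and 1310, 1413 and 1331 in OGCsort +/-. It was 12.3-fold lower in CPGSE +/+ than in OGCsort +/- (log2 -3.63, SE 0.52, adjusted p = 0.00579), and the log2 difference was -2.50 without CPGSE +/+ sample 4 and -4.75 without sample 6. Klf9, a zinc finger factor induced by glucocorticoids, had 162.2 and 55.9 in CPGSE +/+, 795.7, 668.8 and 477.4 in OGCsort +/+, and 886.5, 1359 and 843.7 in OGCsort +/- (7.95-fold lower than in OGCsort +/-, adjusted p = 0.0119), and 2 of its 6 probe sets passed. Map2k3os, an antisense transcript of Map2k3, was at least 2.68-fold lower (adjusted p = 0.0126), and Sorcs2 and Ppp2r3d at least 2.52-fold and 2.32-fold lower (adjusted p = 0.0441 and 0.0382). Rasgrp1, an activator of Ras in lymphocytes, was at least 2.87-fold lower on 1 of its 4 probe sets (adjusted p = 0.0277). The others did not pass, 2 of them had differences above 0, and the brightest was at 4372 and 3625 in CPGSE +/+ and 2164, 3058 and 2716 in OGCsort +/- (log2 0.60, adjusted p = 0.843).

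Atf3 belongs to the immediate early and heat shock list, whose genes are induced within minutes of stress or stimulation. Of its 32 genes, all measured, 3 were lower and none was higher, where 0.164% of all named genes were lower. In all 18 lay lower in both CPGSE samples than in every OGCsort +/- sample, as did 18.1% of all named genes, and the median was -0.70. Fosb, a Fos-family subunit of AP-1, had 317.4 and 342.5 in CPGSE +/+, 1535, 1052 and 1429 in OGCsort +/+, and 2325, 1555 and 1284 in OGCsort +/- (log2 -2.23 against OGCsort +/-, SE 0.44, adjusted p = 0.0355). Dusp1, a phosphatase that switches off MAP kinases, had 1914 and 1425 in CPGSE +/+, 8578, 4272 and 6780 in OGCsort +/+, and 5830, 5554 and 5808 in OGCsort +/- (log2 -1.77, SE 0.31, adjusted p = 0.0165). Ier3 had a log2 difference of -1.58 against OGCsort +/- and did not pass (adjusted p = 0.0833). At an unadjusted p under 0.05 by limma 14 of the 32 were lower and 1 higher (5.8 and 5.53% of all named genes). The list median was -0.62 between CPGSE +/+ and OGCsort +/+, where 0 genes passed by limma and 10 were lower at an unadjusted p under 0.05 (3.17% of all named genes). Between OGCsort +/+ and OGCsort +/- the list median was -0.06, where 0 passed and 1 was higher at an unadjusted p under 0.05. Between CPGSE +/+ and OGCsort +/+ the log2 differences were -1.91 for Dusp1, -1.90 for Fosb, -3.00 for Atf3 and -3.25 for Plk2, with adjusted p-values of 0.190, 0.329, 0.190 and 0.190. Since the CPGSE arrays differ from both OGCsort groups in run, chip lot and set of sorts, these cannot be told apart for this list. The promoter of Dusp1 is shown because TGACGTCA, there in capitals, is also the site of the cyclic AMP response, known to drive immediate early genes, and the promoter of Fosb is shown beside it.
Dusp1 promoter: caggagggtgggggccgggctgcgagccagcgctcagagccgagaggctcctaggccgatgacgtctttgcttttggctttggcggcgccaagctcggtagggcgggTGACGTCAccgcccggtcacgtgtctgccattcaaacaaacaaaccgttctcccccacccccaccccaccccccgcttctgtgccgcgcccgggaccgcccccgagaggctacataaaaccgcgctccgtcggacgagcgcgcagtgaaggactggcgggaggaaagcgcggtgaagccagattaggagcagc
Fosb promoter: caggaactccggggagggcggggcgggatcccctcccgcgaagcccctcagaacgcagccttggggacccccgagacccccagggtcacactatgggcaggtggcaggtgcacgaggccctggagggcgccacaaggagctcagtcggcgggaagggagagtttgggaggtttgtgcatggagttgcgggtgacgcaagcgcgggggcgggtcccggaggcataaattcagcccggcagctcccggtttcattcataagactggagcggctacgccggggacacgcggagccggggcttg
These are RefSeq's for GRCm38.p6, at chr17:26508423-26508722 and chr7:19309996-19310295, both on the minus strand. In Dusp1 the motif begins 143 bases before the start. Fosb holds neither TGACGTCA nor CCAAT in this window, Atf3 and Klf9 hold CCAAT and no TGACGTCA, and the absence of letters says nothing of a factor.

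**Figure D3:**
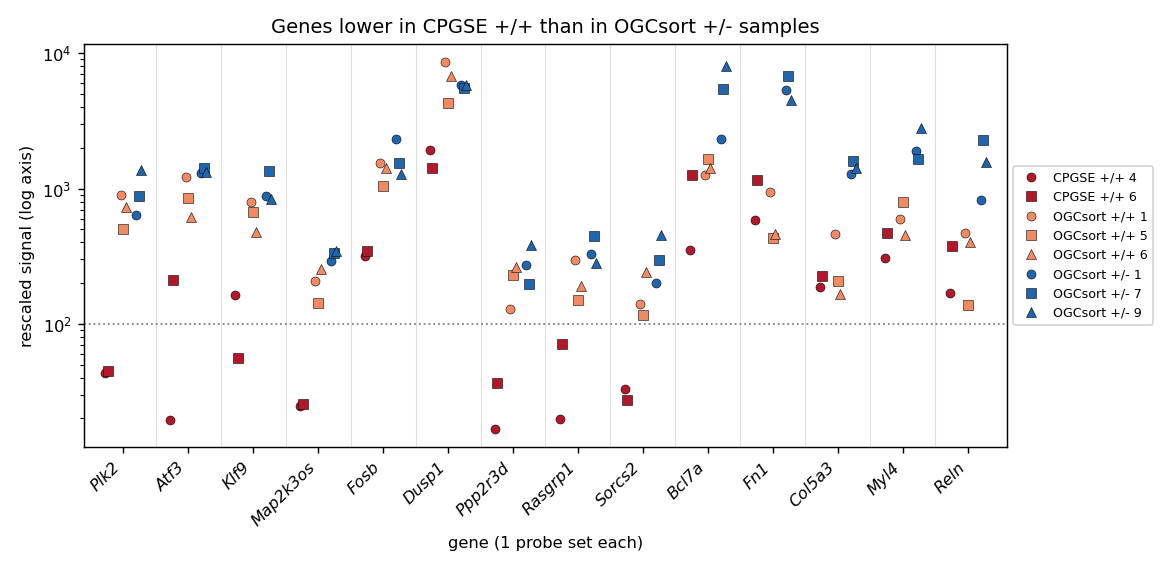
Rescaled signal (log axis) of 14 genes called lower in CPGSE +/+ than in OGCsort +/-, 1 point per sample, with OGCsort +/+ between them and a dotted line at a signal of 100. Plk2, Atf3, Klf9, Fosb and Dusp1 are low in the CPGSE samples and high in both OGCsort groups, while Fn1, Col5a3 and Reln are low in CPGSE +/+ and OGCsort +/+ and high in OGCsort +/-.

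In the other kind both sets of +/+ samples were low. Fn1, which encodes the matrix protein fibronectin and is expressed by monocytes, had 584.4 and 1164 in CPGSE +/+, 938, 432.8 and 461.1 in OGCsort +/+, and 5341, 6824 and 4508 in OGCsort +/-. It was 6.42-fold lower in CPGSE +/+ than in OGCsort +/- (log2 -2.68, SE 0.35, adjusted p = 0.00339), with 1 of its 2 probe sets called. Col5a3, a fibrillar collagen chain, had 187.3 and 224.6 in CPGSE +/+, 460.9, 206.1 and 166.1 in OGCsort +/+, and 1288, 1600 and 1427 in OGCsort +/- (6.17-fold lower than in OGCsort +/-, adjusted p = 0.00662). Reln, a secreted matrix glycoprotein, had 168.6 and 376.2 in CPGSE +/+, 466.6, 138.6 and 399.5 in OGCsort +/+, and 820.2, 2299 and 1559 in OGCsort +/- (5.13-fold lower than in OGCsort +/-, adjusted p = 0.0441). Myl4, a myosin light chain, was 5.14-fold lower than in OGCsort +/- (adjusted p = 0.0382). Bcl7a, a subunit of a chromatin remodelling complex, stood between these kinds. Bcl7a had 352.1 and 1253 in CPGSE +/+, 1250, 1648 and 1431 in OGCsort +/+, and 2327, 5412 and 8096 in OGCsort +/- (6.70-fold lower than in OGCsort +/-, adjusted p = 0.0430), and its fold was 3.67 without CPGSE +/+ sample 4 and 12.3 without sample 6.

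The lists of neutrophil genes had negative medians, but none of their genes passed, and the samples within each group lay far apart. Camp, an antimicrobial peptide of secondary granules, had 552.3 and 13120 in CPGSE +/+ samples 4 and 6, 2508, 459.8 and 229.2 in OGCsort +/+, and 72210, 14630 and 7653 in OGCsort +/- samples 1, 7 and 9. The CPGSE samples were thus 1 low and 1 near the OGCsort +/- samples 7 and 9 (log2 -2.86, SE 1.37, adjusted p = 0.414). The log2 difference of Camp was -5.11 without CPGSE +/+ sample 6 and -0.61 without sample 4. S100a8, a calcium-binding protein of neutrophils, had 1867 and 24500 in CPGSE +/+ and 68430, 28230 and 14460 in OGCsort +/- (log2 -2.15, adjusted p = 0.498). Lcn2, which binds iron carriers of bacteria, had 290.5 and 6678 in CPGSE +/+ and 36980, 7057 and 4544 in OGCsort +/- (log2 -2.85, adjusted p = 0.311). Without CPGSE +/+ sample 4 the log2 differences of S100a8, Lcn2 and Mpo were -0.31, -0.66 and -0.66, and without sample 6 they ran from -5.04 for Lcn2 to -3.43 for Mpo. In these genes CPGSE +/+ sample 6 was the higher of its pair and OGCsort +/- sample 1 the highest of its group. Mpo, the myeloperoxidase of primary granules, had 1198 and 8386 in CPGSE +/+ and 19120, 11940 and 10200 in OGCsort +/- (log2 -2.05, adjusted p = 0.235). Elane, the neutrophil elastase, was more even, with 274.9 and 506.3 in CPGSE +/+ and 615.8, 888.8 and 772.5 in OGCsort +/- (log2 -0.95, adjusted p = 0.325).

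Of 16 measured genes of secondary and tertiary granules none passed by limma and 4 were lower at an unadjusted p under 0.05 (as were 5.8% of all named genes), with a median of -1.70. Of 9 primary granule genes and 16 genes of the neutrophil surface and cytosol none passed, 2 of each were lower at an unadjusted p under 0.05, and the medians were -0.95 and -0.91. The summed signal of 7 defining neutrophil markers was 10400 and 109400 in CPGSE +/+, 26810, 3985 and 5467 in OGCsort +/+, and 345700, 138200 and 83280 in OGCsort +/-. Between OGCsort +/+ and OGCsort +/- the median of the secondary and tertiary granule list was -2.81, with 2 genes called lower (0.106% of all named genes). The part of these neutrophil transcripts in the differences of other genes between the groups was not tested.

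**Figure D4:**
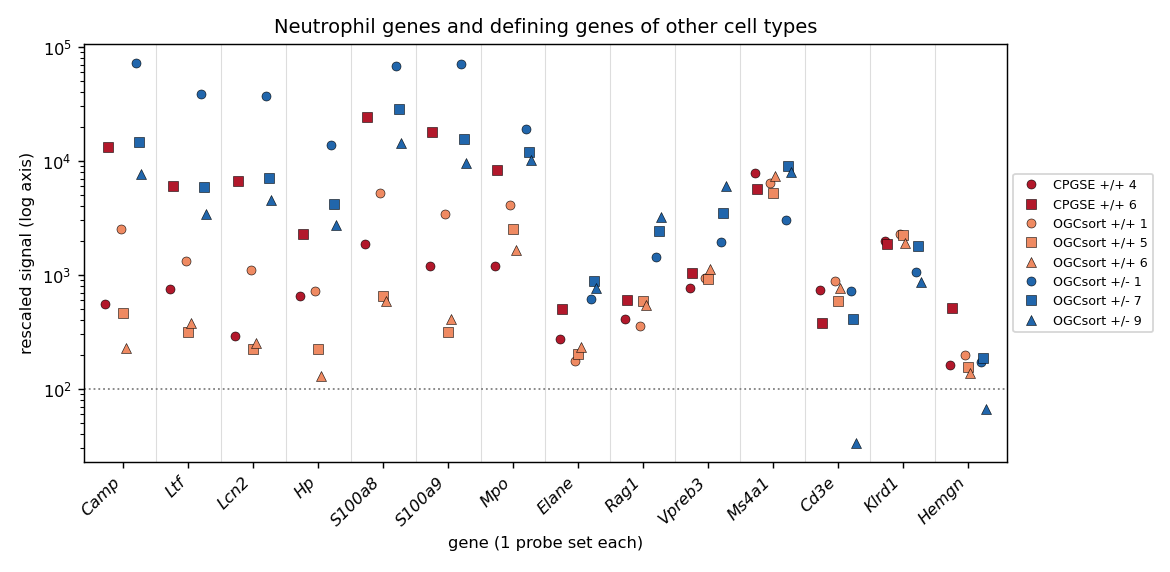
Rescaled signal (log axis) of 8 neutrophil genes and 6 defining genes of other cell types, 1 point per sample of CPGSE +/+, OGCsort +/+ and OGCsort +/-. Camp is at 552.3 in CPGSE +/+ sample 4 and 13120 in sample 6, while Ms4a1 and Cd3e overlap between CPGSE +/+ and OGCsort +/-.

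The 28 lists held 584 genes, of which 494 were measured. The lists not yet given had no gene called. Of 39 cell cycle genes none passed by limma and 4 were lower at an unadjusted p under 0.05, with a median of -0.25, and Uhrf1, a factor of DNA methylation in dividing cells, had the smallest adjusted p of these (2.003-fold lower, adjusted p = 0.0902). At an unadjusted p under 0.05, where 5.53% of all named genes were higher and 5.8% lower, 1 of 20 cytosolic ribosome genes was higher and none lower, 2 of 11 haem synthesis genes were higher and 1 lower, 3 of 14 conventional dendritic genes were higher and 1 lower, and 4 of 19 megakaryocyte and platelet genes were higher and none lower. The 15 genes of basophils, mast cells and eosinophils and the 5 of the phagocyte oxidase had 0 in either direction. For cells outside the blood 1 of 18 endothelial genes was higher and 2 lower, 2 of 23 mesenchymal stromal genes were higher and 4 lower, 0 of 5 osteoblast genes passed in either direction, and 1 of 9 myogenic genes was higher and none lower.

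**Figure D5:**
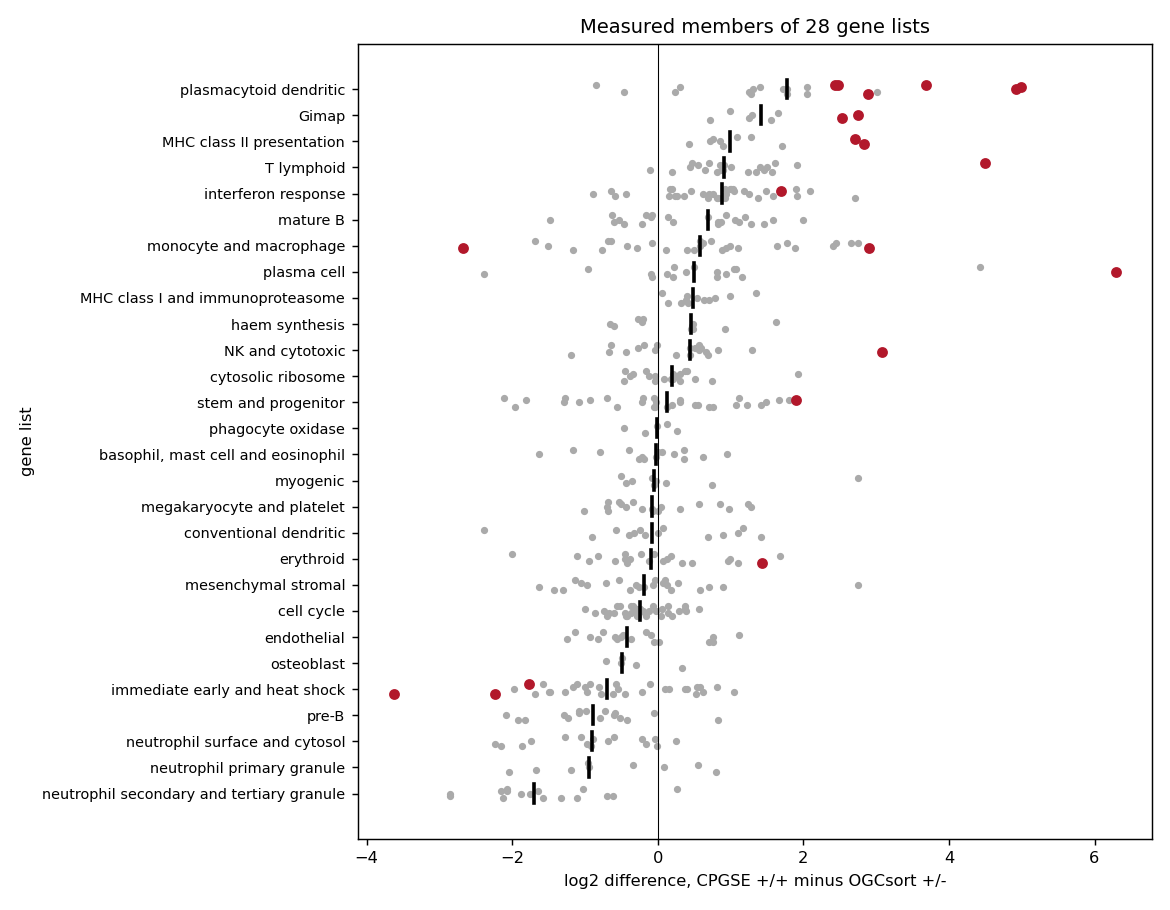
Log2 difference between CPGSE +/+ and OGCsort +/- samples (horizontal axis) for each measured gene of 28 lists (vertical axis). Points are genes, larger coloured points are those called, and bars are list medians, which run from 1.78 for plasmacytoid dendritic genes to -1.70 for genes of secondary and tertiary granules.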

How the data were processed

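RNA of sorted mouse marrow cells was measured on MOE430A and MOE430B arrays. Each deposited value is a probe set's signal intensity on a linear scale, made with MAS5 per the submitters' processing notes. The sources used here do not give the MAS5 version. The deposited intensity values had a trimmed mean of 1500 on each array, so the authors had scaled each array. Groups came from the sample labels. The comparison, the members and the gene lists were chosen with earlier results of these data known.

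Each array was rescaled to a mean of 500 over its probe sets other than controls, after trimming 2% at each end. Probe sets over 100 on at least 2 of the 11 arrays were kept, and values were taken as log2(signal + 32). All 11 samples, in 4 groups, were fitted for each chip by itself in R 4.3.3 with limma 3.58.1 (lmFit, eBayes with a trend), with Benjamini-Hochberg adjustment within each chip and a threshold of 0.05. A gene was represented by 1 probe set: MOE430A before MOE430B, then a name ending in _at alone, then the highest mean. A group with all its arrays under 100 was set to 100 for its fold, given as a bound. Tables and the exact test used Python 3.11.15, pandas 2.3.3 and scipy 1.17.1. The fits were tested on simulated data.

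Named genes were Ptprc, the 12 called genes with the largest differences in each direction (log2 of at least 1, no overlap between samples, no predicted gene), the members of each list with the smallest p (at most 4), and defining members of a list. Genes outside this rule are said to be so. Alternatives were the pseudocount, the filter, the normalization, the eBayes settings, array weights, the 5 samples alone, adjustment over both chips, the fluidics station as a block and each sample left out.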

Additional observations from a re-analysis of the deposited data

How the results depend on the processing

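No paired analysis was possible because CPGSE +/+ samples 4 and 6 and OGCsort +/- samples 1, 7 and 9 share no sort number. The count of MOE430A probe sets, 142 as reported, was 239 with only the 5 samples compared in the fit, 92 with a pseudocount of 1, 36 by eBayes without a trend, 648 with array weights, 85 adjusted over both chips, 214 with the fluidics station as a block, and 4 to 79 with a sample left out. The MOE430B count, 28 as reported, was 59 with the 5 samples alone, 6 with a pseudocount of 1, 15 without the filter, 4 with quantile normalization (4 higher and 0 lower, against 22 and 6 as reported), 15 without rescaling, 0 by eBayes without a trend (1761 at an unadjusted p under 0.05), 50 with array weights, 43 adjusted over both chips, 3 with the station as a block, and 0 to 23 with a sample left out. The remaining settings kept both counts within 1.5 times. Ptprc did not pass under any of these settings, with log2 differences of 0.58 to 0.86 with a sample left out. Of 37 called genes named by their representative probe set, 14 kept their call by eBayes without a trend, 25 with a pseudocount of 1, 30 with quantile normalization, and all 37 with array weights or a pseudocount of 64. The 6 further genes described from MOE430B were each followed by the probe set given above. Of these 6 genes, 0 kept their call by eBayes without a trend, 2 with a pseudocount of 1 and 1 with quantile normalization. With the station as a block 1 kept it, and with array weights all 6 did. Of 39 named genes that did not pass, 20 gained a call with array weights, 9 with the 5 samples alone and 8 with the station as a block. Ms4a1 changed sign with array weights (-0.041), without CPGSE +/+ replicate 4 (-0.084) and without OGCsort +/- replicate 1 (-0.35), and Cd3e without OGCsort +/- replicate 9 (-0.046). With a sample left out Ms4a1 ranged from -0.35 to 0.42 and Cd3e from -0.046 to 1.72. The cause of these shifts was not tested. With 2 samples against 3, and signals under 100 giving only a bound, small differences could not be resolved.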
